A study of Mus musculus with 39 samples.

Results

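The transcripts described here are those of 39 genes of cholesterol and fatty acid synthesis, measured by bulk RNA-seq in the endoneurium of the mouse sciatic nerve. The 39 genes were chosen by symbol as enzymes and regulators of these pathways, by a rule that used no measured value. They are 39 of the 55573 genes with deposited counts, and all 39 were among the 18442 genes that passed a filter on low counts and were tested. They fall into 6 role lists: 7 genes of the mevalonate steps, 12 of the squalene and sterol steps, 6 of sterol sensing and SREBP control, 6 of acetyl-CoA, NADPH and palmitate supply, 4 desaturases and 4 elongases. The mevalonate and sterol lists together are called the 19 cholesterol enzymes, and the last 3 lists the 14 fatty acid enzymes.

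Cells build cholesterol from acetyl-CoA through mevalonate, isoprenoids, squalene and lanosterol, and they build fatty acids from the same acetyl-CoA through malonyl-CoA and palmitate, which elongases lengthen and desaturases bend. Both branches are under the SREBP transcription factors. SREBP precursors sit in the endoplasmic reticulum with their escort SCAP, are held there by INSIG proteins when sterols are plentiful, and are released and cut to enter the nucleus when sterols run short. Myelinating Schwann cells depend on this machinery, since myelin is unusually rich in cholesterol and in long-chain lipids that are largely made in the nerve itself.

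Mice of both genotypes carried floxed *Lepr* alleles and were of both sexes, 2 to 4 months old per the study's methods. *Lepr*-ctrl mice (Lepr fl/fl) had no Cre, and *Lepr*-cKO mice (Lepr fl/fl::Dhh-Cre) also carried Cre under control of the *Dhh* gene. The study used this Cre to delete part of *Lepr* selectively in Schwann cells. Deletion in other endoneurial cells was not measured here. The sciatic nerve of one side was crushed and taken with its perineurium removed at 2 or 4 weeks post-crush (wpc), and the nerve of the other side served as the healthy nerve. At 2 wpc, there were 5 healthy nerves of *Lepr*-ctrl and 6 of *Lepr*-cKO mice, and 5 injured nerves of each genotype. At 4 wpc each genotype had 5 healthy and 4 injured nerves. In all, 39 libraries came from 22 mice, of which 17 gave both nerves. Different mice were used at 2 and at 4 wpc, and the study's methods speak of 4 mice per group where 4 to 6 libraries are held here.

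Total counts ran from 10905806 to 45016322 per library, with the lowest medians in the injured nerves at 4 wpc (14158795 in *Lepr*-ctrl and 17552170.5 in *Lepr*-cKO). The myelin gene *Mbp* was detected in all 39 libraries. *Lepr* counts do not test the deletion, because the recombined allele can still give a shortened transcript. *Lepr* did not pass the test between genotypes in any of the 4 settings (log2 fold change 0.39 and -0.54 in injured nerves at 2 and 4 wpc, adjusted p = 0.939 and 0.362). Adipocyte markers summed to over 100 CPM in 13 libraries, as given below. Perineurial markers in healthy nerves at 4 wpc had log2 fold changes of 0.05 (*Slc2a1*) to 4.62 (*Krt19*), *Lepr*-cKO over *Lepr*-ctrl, none past the test. By muscle markers or mitochondrially encoded share, some of the 39 libraries stood apart, named here by the animal as in the labels. The injured nerve of *Lepr*-cKO animal SLRKO2wpc126 at 2 wpc carried 52530 CPM of summed skeletal muscle markers against at most 47.9 in any other library. Mitochondrially encoded genes took 33.0% of the counts in the injured nerve of *Lepr*-ctrl animal SLRKO2wpc144 at 2 wpc. They took 29.7% in that of *Lepr*-cKO animal SLRKO2wpc135 at 2 wpc and 2.95% in that of *Lepr*-cKO animal KO-169 at 4 wpc. The other injured nerves at 4 wpc had 17.2% to 21.6% in *Lepr*-ctrl and 9.84% to 20.2% in *Lepr*-cKO mice.

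Levels are given as CPM, that is, counts scaled to a common library total, with TMM factors. A gene is said to have risen, fallen or changed where its adjusted p in edgeR's quasi-likelihood test with Benjamini-Hochberg adjustment over the 18442 genes was under 0.05, and the number that also passed a 2-fold threshold is given beside it. Fold changes are on the log2 scale, and intervals are 95% intervals of the log2 fold change. In bulk tissue, fewer cells of a type and less RNA per cell cannot be told apart. The p-values rest on a spread between libraries that was estimated over all 8 groups together. Groups whose libraries vary more or less than that are not treated separately. Both nerves of 17 mice entered that fit as separate libraries.

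Sequences upstream of 3 members named below are shown as examples, each with matches to some of the short motifs searched for. Capitals mark 3 kinds of match on either strand: the core sterol regulatory element TCACNCCAC, the NF-Y box CCAAT (read as ATTGG on the other strand) and the E-box CACGTG, which is its own reverse complement. No marked match overlaps another. The sequences are from RefSeq on GRCm38.p6 and lie directly before the gene's first annotated base or end shortly before its RefSeq start.
Hmgcs1, chr13:119690101-119690350, plus strand: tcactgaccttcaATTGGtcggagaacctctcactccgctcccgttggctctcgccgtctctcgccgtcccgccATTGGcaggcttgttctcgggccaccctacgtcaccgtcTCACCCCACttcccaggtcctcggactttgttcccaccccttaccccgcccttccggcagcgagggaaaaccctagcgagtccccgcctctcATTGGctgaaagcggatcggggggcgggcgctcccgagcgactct
Hsd17b7, chr1:169969242-169969455, minus strand: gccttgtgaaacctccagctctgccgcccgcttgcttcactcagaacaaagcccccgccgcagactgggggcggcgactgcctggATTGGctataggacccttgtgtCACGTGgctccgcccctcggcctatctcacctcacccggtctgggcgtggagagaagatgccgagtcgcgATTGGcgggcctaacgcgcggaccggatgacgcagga
Insig1, chr5:28071162-28071362, plus strand: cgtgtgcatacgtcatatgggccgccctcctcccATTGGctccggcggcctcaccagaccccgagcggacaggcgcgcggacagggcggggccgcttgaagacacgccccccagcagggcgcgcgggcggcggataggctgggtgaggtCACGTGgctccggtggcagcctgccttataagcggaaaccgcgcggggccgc

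*Hmgcs1* holds 1 core sterol regulatory element and 3 CCAAT boxes, *Hsd17b7* holds 2 CCAAT boxes and 1 E-box, and *Insig1* holds 1 of each of these. Windows of 300 bases, from 250 before to 50 after the start, were at hand for 32 of the 39 members. A CCAAT box lay in the windows of 26 of 32 members (81.25%) and of 41.058% of all 27025 genes with a window. The E-box lay in 6 of 32 (18.75%) against 8.093%, namely in *Dhcr7*, *Elovl5*, *Hsd17b7*, *Insig1*, *Sc5d* and *Scap*. The core sterol regulatory element as spelled here lay in 1 of 32 (3.125%), namely *Hmgcs1*, against 1.436%. It was not in the stretches shown of *Hsd17b7* and *Insig1*. These are matches of letters, and binding of no factor was measured.

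In healthy nerves the members spanned about 3 orders of magnitude. Levels of different genes are compared here as RPKM, CPM divided by the exon length in kilobases. *Scd2*, a stearoyl-CoA desaturase, was highest at 1121 ± 84.3 RPKM (SD, n = 5) in healthy *Lepr*-ctrl nerves at 2 wpc. It was followed by *Hmgcs1*, which makes the precursor of mevalonate, at 276 ± 35.1 and *Elovl1*, an elongase of very long saturated chains, at 255 ± 29.9, which lay within each other's spread. *Acacb* was lowest at 0.957 RPKM and *Idi1* next at 2.44. Summed over all 39 members, healthy nerves held 11410 to 15453 CPM over the 4 groups, while injured nerves held 2433 to 7731.

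The crush lowered nearly the whole set in both genotypes and at both times. In *Lepr*-ctrl nerves at 2 wpc, 38 of 39 members changed (63.9% of all tested genes): 34 fell and 4 rose, where 30.2% of all genes fell and 33.7% rose. More than 2-fold, 26 fell (14.3%) and 3 rose (19.8%). At 4 wpc, 38 again changed in *Lepr*-ctrl nerves (63.6% of all genes), of which 35 fell and 3 rose (31.2% and 32.4%), 33 and 2 of them more than 2-fold (15.9% and 20.1%). In *Lepr*-cKO nerves 37 members changed at each time (65.1% of all genes at 2 wpc and 55.3% at 4 wpc). At each time 33 fell and 4 rose, against 29.2% and 35.9% of all genes at 2 wpc and 25.8% and 29.6% at 4 wpc. At each time 27 fell more than 2-fold (13.4% and 10.8% of all genes), and 3 and 2 rose more than 2-fold (20.9% and 16.8%). The median log2 fold change of the members was -1.64 and -1.81 in *Lepr*-ctrl nerves at 2 and 4 wpc and -1.46 and -1.35 in *Lepr*-cKO nerves, with medians over all genes between 0.02 and 0.10. Every injured library lay below every healthy one of its group for 32 and 34 members in *Lepr*-ctrl nerves (24.1% and 27.4% of all genes) and for 32 at each time in *Lepr*-cKO nerves (20.9% of all genes at each time).

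**Figure D1:**
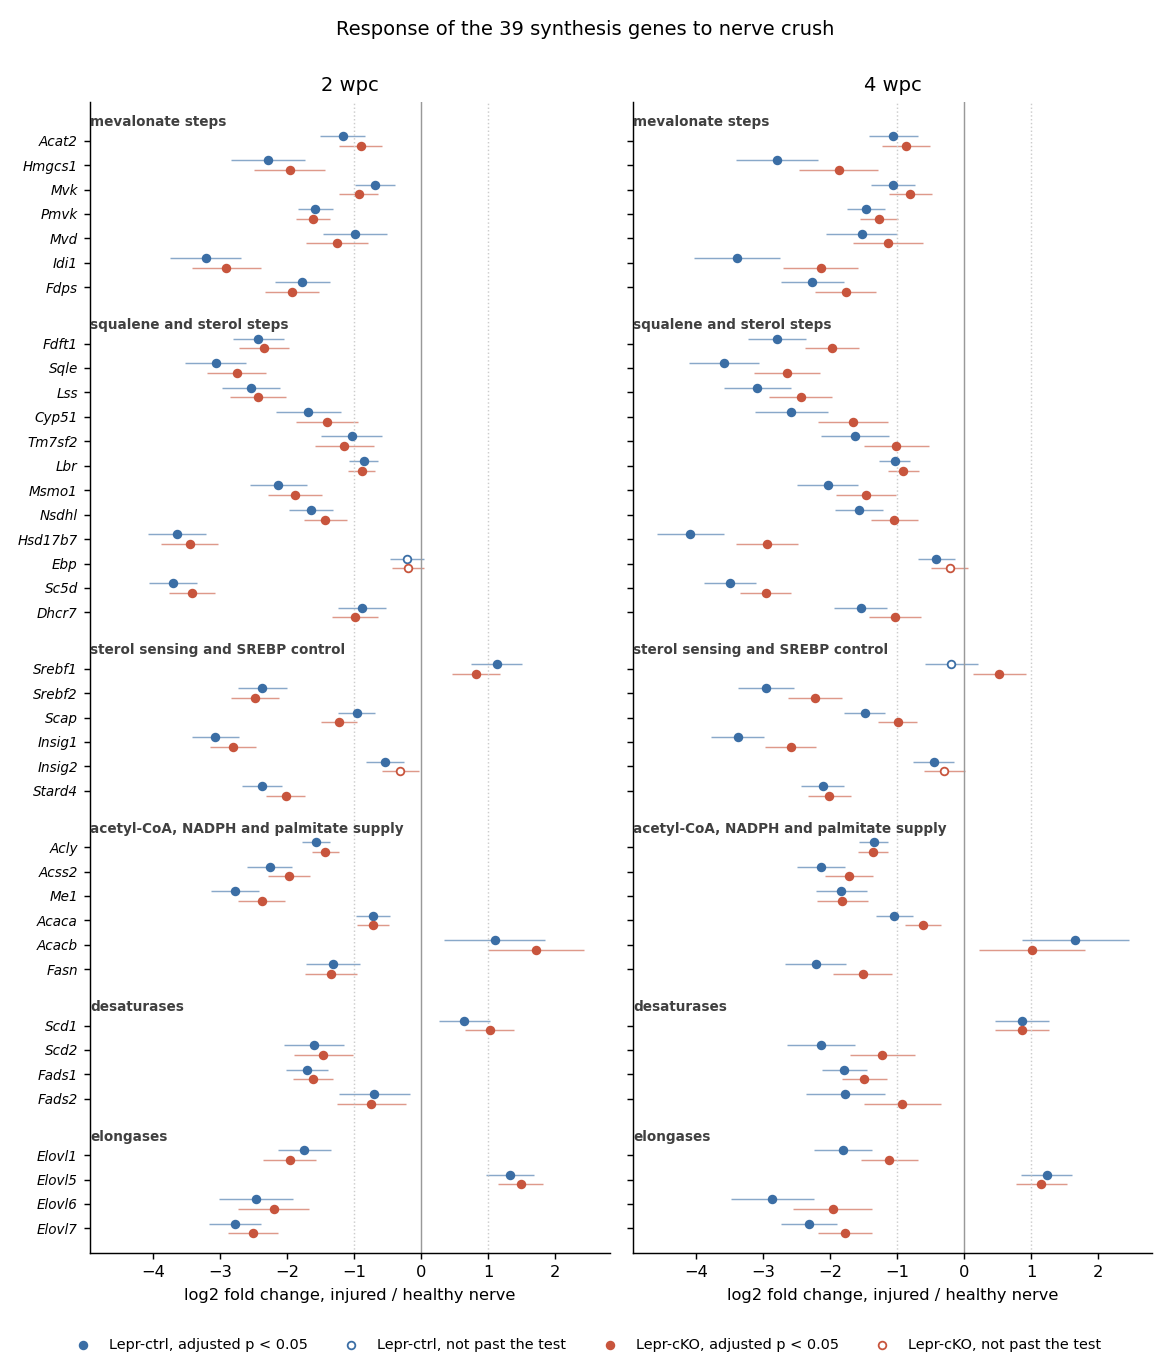
Log2 fold change of injured over healthy nerves (x axis) for the 39 members by role list (y axis) at 2 wpc (left) and 4 wpc (right), in *Lepr*-ctrl (blue) and *Lepr*-cKO (red) nerves, with lines as 95% intervals and filled points as adjusted p under 0.05. Most points lie left of -1, *Scd1*, *Elovl5* and *Acacb* lie to the right of 0 in each comparison, and *Srebf1* lies right of 0 in all but *Lepr*-ctrl nerves at 4 wpc.

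All 7 mevalonate genes fell in each of the 4 injury comparisons. These enzymes condense acetyl-CoA units and phosphorylate and decarboxylate mevalonate to the isoprenoid units that are joined to farnesyl diphosphate. *Pmvk*, phosphomevalonate kinase, had 80.3, 107, 73.6, 86.3 and 98.7 CPM in the 5 healthy *Lepr*-ctrl nerves at 2 wpc and 34.3, 24.7, 30.5, 23.3 and 36.6 CPM in the injured ones. The highest injured nerve was far below the lowest healthy one, and *Pmvk* fell by 1.58 on the log2 scale (adjusted p = 2.38e-12). *Idi1*, the isopentenyl diphosphate isomerase (GRCm38 chr13:8885501-8892451, plus strand), fell furthest of the list in each comparison. It had 6.76, 8.28, 10.3, 9.89 and 7.52 CPM in the healthy and 0.991, 0.870, 1.47, 0.285 and 0.916 CPM in the injured *Lepr*-ctrl nerves at 2 wpc. The log2 fold change of *Idi1* was -3.21 and -3.39 in *Lepr*-ctrl nerves at 2 and 4 wpc and -2.91 and -2.14 in *Lepr*-cKO nerves. *Hmgcs1* changed by -2.28, -2.78, -1.96 and -1.87 in the same order, and *Fdps*, farnesyl diphosphate synthase, by -1.77, -2.26, -1.92 and -1.77.

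The squalene and sterol steps held the largest losses. Of the 12 genes, 11 fell in *Lepr*-ctrl nerves at 2 wpc, 12 at 4 wpc and 11 at each time in *Lepr*-cKO nerves. *Sc5d*, the desaturase of a late sterol ring step, had 386, 438, 417, 474 and 370 CPM in healthy *Lepr*-ctrl nerves and 26.5, 33.2, 47.5, 15.6 and 36.9 CPM in injured ones at 2 wpc. No injured nerve came near a healthy one, a 13.0-fold fall (log2 fold change -3.71, SE 0.18, adjusted p = 7.42e-18). At 4 wpc *Sc5d* had 279, 278, 333, 305 and 298 CPM in healthy and 26.6, 28.5, 32.1 and 18.5 CPM in injured *Lepr*-ctrl nerves, and it was 11.3-fold lower. In *Lepr*-cKO nerves the fall of *Sc5d* was 10.7-fold at 2 wpc and 7.75-fold at 4 wpc.

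*Hsd17b7*, a reductase in the removal of methyl groups from the sterol ring (chr1:169949535-169969241, minus strand), moved in the same way. Healthy *Lepr*-ctrl nerves at 2 wpc had 159, 152, 165, 186 and 165 CPM, and injured ones 15.7, 9.44, 18.5, 5.08 and 17.1 CPM. At 4 wpc the healthy values were 108, 122, 141, 122.8 and 128.3 CPM and the injured ones 6.62, 7.14, 8.41 and 7.04 CPM. The groups were again far apart, and *Hsd17b7* was 12.52-fold lower at 2 wpc and 16.9-fold lower at 4 wpc in *Lepr*-ctrl nerves, and 10.9-fold and 7.69-fold lower in *Lepr*-cKO nerves. *Sqle*, which oxidises squalene, changed by -3.06 and -3.57 on the log2 scale in *Lepr*-ctrl and -2.75 and -2.64 in *Lepr*-cKO nerves at 2 and 4 wpc. *Lss*, which closes the rings to lanosterol, changed by -2.54, -3.08, -2.43 and -2.44. The exception was *Ebp*, the sterol isomerase, which fell only in *Lepr*-ctrl nerves at 4 wpc (log2 fold change -0.41, adjusted p = 0.0115) and had values of -0.21, -0.20 and -0.22 in the other comparisons (adjusted p = 0.164, 0.167 and 0.19). Whether these values of *Ebp* differ between comparisons was not tested gene by gene beyond the interactions given below.

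Among the genes of sterol sensing, the SREBP-2 branch fell and *Srebf1* went the other way at 2 wpc. *Insig1*, a retention factor for SCAP and itself an SREBP target (chr5:28071363-28078662, plus strand), had 194, 233, 209, 255 and 210 CPM in healthy and 26.1, 23.6, 33.5, 12.9 and 35.1 CPM in injured *Lepr*-ctrl nerves at 2 wpc. Its injured values stayed under 36 CPM in all 5 nerves, and the log2 fold change was -3.07 (SE 0.18, adjusted p = 6.05e-16), with -3.38 at 4 wpc and -2.81 and -2.59 in *Lepr*-cKO nerves. *Srebf2*, the gene of SREBP-2, changed by -2.37 and -2.96 in *Lepr*-ctrl and -2.48 and -2.22 in *Lepr*-cKO nerves at 2 and 4 wpc. *Stard4*, a sterol carrier between membranes, changed by -2.38, -2.11, -2.02 and -2.01, and *Scap* by -0.96, -1.48, -1.22 and -0.99. *Insig2* fell in *Lepr*-ctrl nerves (-0.54 and -0.45, adjusted p = 0.00169 and 0.0126) and had -0.31 and -0.30 in *Lepr*-cKO nerves (adjusted p = 0.0502 and 0.106). With the mouse as a replicate block, which compares the paired nerves of an animal, *Insig2* also passed in *Lepr*-cKO nerves (-0.37 and -0.35, adjusted p = 0.0165 and 0.0433).

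Of the 6 genes that supply acetyl-CoA, NADPH and palmitate, 5 fell and *Acacb* rose in each comparison. *Acly*, which splits citrate into acetyl-CoA, had 232, 266, 229, 268 and 246 CPM in healthy and 76.1, 92.6, 94.6, 76.4 and 80.0 CPM in injured *Lepr*-ctrl nerves at 2 wpc. It fell by 1.56 on the log2 scale (SE 0.11, adjusted p = 1.39e-14), with injured nerves close to each other and well below all healthy ones. *Me1*, the malic enzyme that gives NADPH, had 160, 169.1, 157, 165 and 156 CPM in the same healthy nerves and 23.1, 26.0, 27.0, 15.3 and 26.3 CPM in the injured ones, a log2 fold change of -2.78 (adjusted p = 9.49e-15). *Acss2*, which activates acetate, changed by -2.26, -2.13, -1.97 and -1.71 over the 4 comparisons, and *Fasn*, the fatty acid synthase, by -1.32, -2.21, -1.34 and -1.51. *Acaca*, the carboxylase that makes malonyl-CoA for synthesis, moved least of those that fell, with -0.72, -1.04, -0.72 and -0.61.

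Desaturases and elongases fell with 1 exception in each list. *Fads1*, a desaturase of polyunsaturated chains, had 589, 666, 612, 640 and 678 CPM in healthy and 168.2, 295, 212, 118 and 185 CPM in injured *Lepr*-ctrl nerves at 2 wpc, and its log2 fold changes over the 4 comparisons were -1.70, -1.79, -1.61 and -1.49. *Elovl7*, an elongase of long saturated chains, had 218, 222, 243, 262 and 193 CPM in healthy and 30.6, 30.8, 48.0, 13.9 and 42.5 CPM in injured nerves of the same groups, with log2 fold changes of -2.78, -2.31, -2.51 and -1.78. In neither gene did an injured nerve reach a healthy one. *Elovl6*, which lengthens palmitate to stearate, changed by -2.46, -2.86, -2.20 and -1.96, and *Scd2* by -1.597, -2.13, -1.46 and -1.22. *Fads2* fell least, by 0.70 in *Lepr*-ctrl nerves at 2 wpc (adjusted p = 0.0233).

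*Elovl5*, *Scd1* and *Acacb* rose in all 4 injury comparisons and *Srebf1* in 3, and each has a relative in the set that fell. *Elovl5*, an elongase of polyunsaturated chains, had 58.4, 52.8, 49.7, 50.5 and 35.0 CPM in healthy and 103, 167.6, 169.2, 81.5 and 93.7 CPM in injured *Lepr*-ctrl nerves at 2 wpc. All injured nerves were above all healthy ones, and the log2 fold change was 1.32 (adjusted p = 1.46e-07), with 1.23 at 4 wpc and 1.48 and 1.15 in *Lepr*-cKO nerves. *Scd1*, the sister of *Scd2*, had 356, 494, 386, 462 and 317 CPM in healthy and 383, 942, 805, 458 and 559 CPM in injured *Lepr*-ctrl nerves at 2 wpc. These groups overlapped, and *Scd1* rose by 0.64 (adjusted p = 0.00451), by 0.86 at 4 wpc and by 1.02 and 0.86 in *Lepr*-cKO nerves. *Acacb*, the carboxylase whose malonyl-CoA limits fatty acid entry into mitochondria, rose by 1.09 and 1.66 in *Lepr*-ctrl nerves (adjusted p = 0.0137 and 0.000625) and by 1.72 and 1.02 in *Lepr*-cKO nerves (adjusted p = 0.00012 and 0.0318).

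*Srebf1*, the gene of SREBP-1 (chr11:60199089-60222581, minus strand), had 124, 135.5, 118, 120 and 143 CPM in healthy and 369, 293, 257, 172.8 and 304 CPM in injured *Lepr*-ctrl nerves at 2 wpc. All 5 injured nerves were above the healthy ones, and *Srebf1* rose by 1.13 (SE 0.19, adjusted p = 5.20e-06). At 4 wpc healthy *Lepr*-ctrl nerves had 227, 129, 154, 175.5 and 185 CPM and injured ones 166, 155, 166 and 123.3 CPM, with full overlap and a log2 fold change of -0.19 (adjusted p = 0.424). In *Lepr*-cKO nerves *Srebf1* rose by 0.82 at 2 wpc (adjusted p = 0.00019) and by 0.52 at 4 wpc (adjusted p = 0.0272), where the injured nerves had 397, 241, 253 and 150 CPM. The rise at 4 wpc rested on the first of these, animal KO-169: it was 0.24 without it and no longer passed the test. Nor did it pass without the healthy nerve of KO-177 (0.47).

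**Figure D2:**
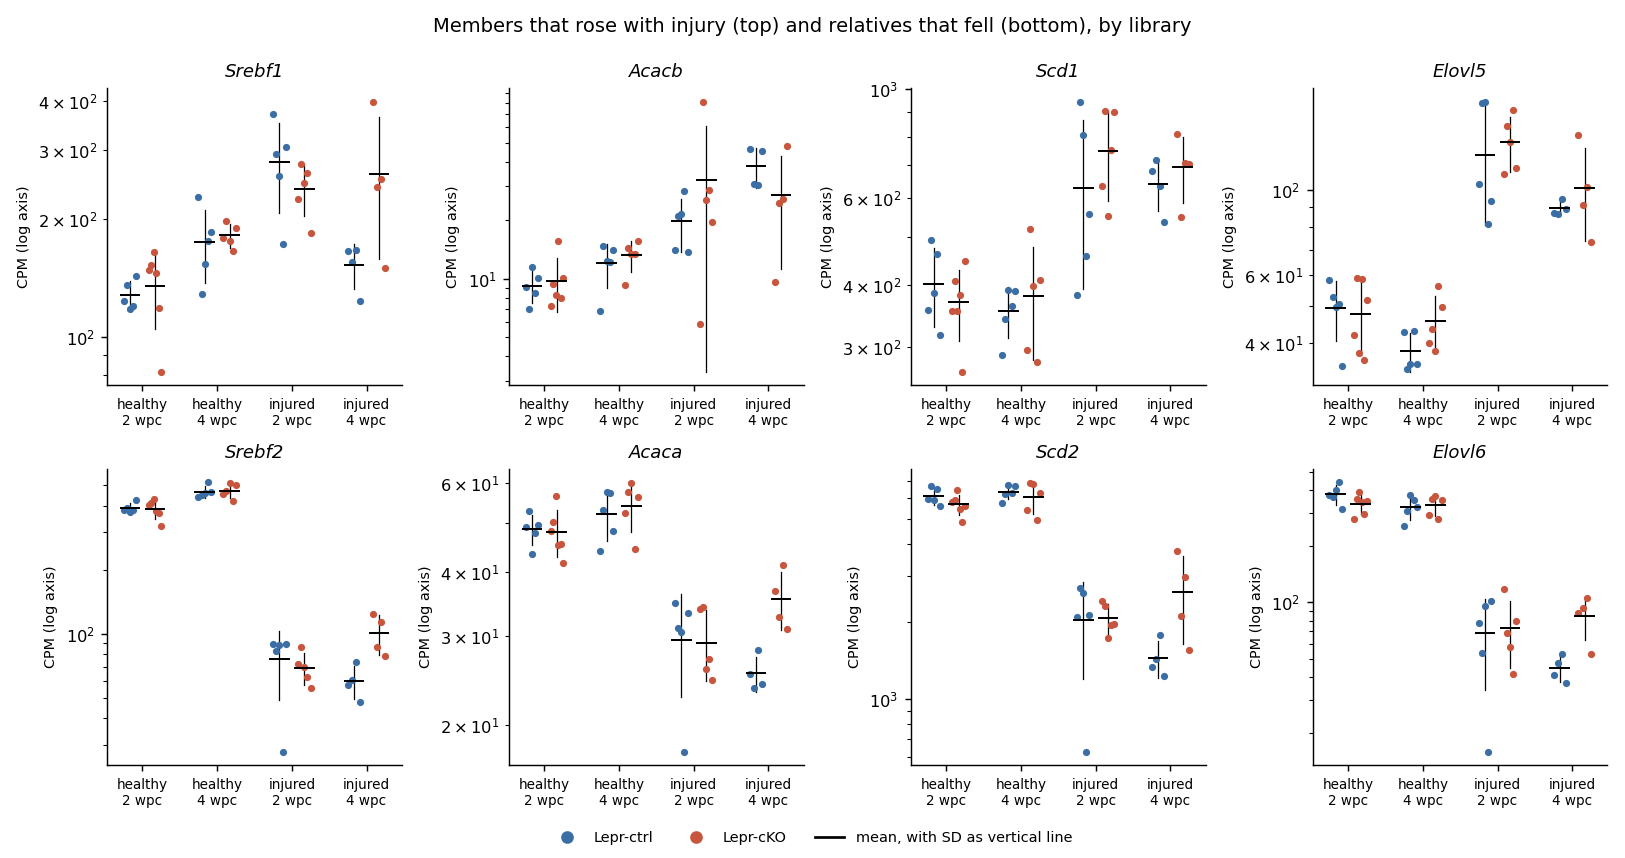
CPM per library (y axis, log scale) of the 4 members that rose with injury (top row) and of a relative that fell (bottom row), by nerve and time (x axis), in *Lepr*-ctrl (blue) and *Lepr*-cKO (red) nerves, with bars as means and vertical lines as SD. *Srebf2*, *Acaca*, *Scd2* and *Elovl6* drop in injured nerves, whereas *Elovl5* is 81.5 to 169.2 CPM in injured *Lepr*-ctrl nerves at 2 wpc against 35.0 to 58.4 in healthy ones.

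Most adipocyte markers also rose with injury in *Lepr*-ctrl nerves. Few did in *Lepr*-cKO nerves, where some healthy nerves already held over 100 CPM of these markers. Their sum was 10.9 to 19.1 CPM in healthy *Lepr*-ctrl nerves. With injury, 8 and 9 of 9 markers rose in *Lepr*-ctrl nerves at 2 and 4 wpc (33.7% and 32.4% of all genes). In *Lepr*-cKO nerves 2 and 1 of 9 rose (35.9% and 29.6% of all genes). The sum exceeded 100 CPM in 13 of 39 libraries, 9 of them injured, while *Adipoq* was at 0 in 12 libraries and *Plin1* in 9. The healthy libraries over 100 CPM were all from *Lepr*-cKO mice, 2 of 6 at 2 wpc and 2 of 5 at 4 wpc. These nerves enter the comparisons of *Lepr*-cKO mice below. With a term for the adipocyte markers, added after seeing the data, *Scd1* and *Acacb* no longer passed in *Lepr*-ctrl nerves at 2 wpc (log2 fold change 0.33 and 0.61), nor did *Acacb* in *Lepr*-cKO nerves at 4 wpc (0.71). Without the 13 libraries *Scd1* was at 0.20 and *Elovl5* at 0.91 in *Lepr*-ctrl nerves at 2 wpc. In *Lepr*-cKO nerves at 4 wpc that setting leaves 1 injured nerve, and 7 members no longer passed with it: *Msmo1* (-1.04), *Tm7sf2* (-0.84), *Mvd* (-0.70), *Acat2* (-0.64), *Mvk* (-0.55), *Acacb* (1.01) and *Srebf1* (0.46). In *Lepr*-cKO nerves at 2 wpc *Acacb* had 5.88, 81.1, 25.3, 28.6 and 19.5 CPM, and its rise of 1.72 was 1.04 without animal SLRKO2wpc126, the second of these. *Acacb* in *Lepr*-cKO nerves at 4 wpc also no longer passed without the healthy nerve of animal KO-169 or KO-177 or the injured nerve of animal KO-177 (0.91, 1.01 and 0.58). *Fads2* in *Lepr*-ctrl nerves at 2 wpc no longer passed without the healthy or the injured nerve of animal SLRKO2wpc123, or the injured nerve of SLRKO2wpc144 (-0.49) or SLRKO2wpc147, nor with the mouse as a replicate block (-0.63, adjusted p = 0.0558) or with the compared groups alone (adjusted p = 0.0922).

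Markers of myelinating Schwann cells fell beside the members. Of 14 such markers, 12 and 14 fell with injury in *Lepr*-ctrl nerves at 2 and 4 wpc (30.2% and 31.2% of all genes). In *Lepr*-cKO nerves 13 and 10 fell (29.2% and 25.8% of all genes). Their summed level was 92509 to 127796 CPM in healthy nerves, 11970 to 55288 CPM in injured *Lepr*-ctrl and 19296 to 54174 CPM in injured *Lepr*-cKO nerves at 2 wpc. The share of mitochondrially encoded counts was 1.92% to 4.25% in healthy nerves and 2.95% to 33.0% in injured ones. Their part in the result was not tested.

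Between genotypes, 0 of 39 members passed the test in injured nerves at 2 wpc and 6 at 4 wpc. At 2 wpc no member changed between *Lepr*-cKO and *Lepr*-ctrl injured nerves, where 0.58% of all genes did. None had an unadjusted p under 0.05, and DESeq2 made 0 calls with 1 member at an unadjusted p under 0.05. The median log2 fold change was 0.03, 22 of 39 members were above 0, and values ran from -0.27 for *Fdps* to 0.70 for *Acacb*. The *Acacb* value takes in the muscle-rich nerve of SLRKO2wpc126 at 81.1 CPM, against 5.88 to 28.6 CPM in the other injured *Lepr*-cKO nerves. For *Hsd17b7*, injured *Lepr*-cKO nerves at 2 wpc had 17.4, 15.5, 8.78, 8.93 and 15.1 CPM, within the range of the *Lepr*-ctrl nerves, and the interval of the log2 difference was -0.40 to 0.40. The interval was -0.48 to 0.58 for *Idi1* and -0.26 to 0.40 for *Insig1*.

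At 4 wpc, 6 of 39 members were higher in injured *Lepr*-cKO than *Lepr*-ctrl nerves and none was lower, where 1.02% of all genes were higher and 0.287% lower (1.31% in either direction). Of the 6, 4 passed the 2-fold threshold (0.363% of all genes, with 0 members and 0.0868% of all genes lower by as much). They are *Idi1* of the mevalonate steps, *Fdft1*, *Sqle*, *Cyp51* and *Hsd17b7* of the 12 squalene and sterol steps, and *Insig1* of sterol sensing, so 5 of the 19 cholesterol enzymes and 0 of the 14 fatty acid enzymes. The log2 fold change was above 0 for 38 of 39 members, with *Acacb* the exception, and its median was 0.58 against 0.03 over all genes. An unadjusted p under 0.05 was reached by 27 members, all higher, against 19.9% of all genes in either direction. In 10 members every *Lepr*-cKO nerve lay above every *Lepr*-ctrl nerve (2.92% of all genes), namely *Hmgcs1*, *Idi1*, *Fdft1*, *Lss*, *Hsd17b7*, *Sc5d*, *Srebf2*, *Insig1*, *Acaca* and *Elovl6*, and in none was it the reverse (2.75%).

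**Figure D3:**
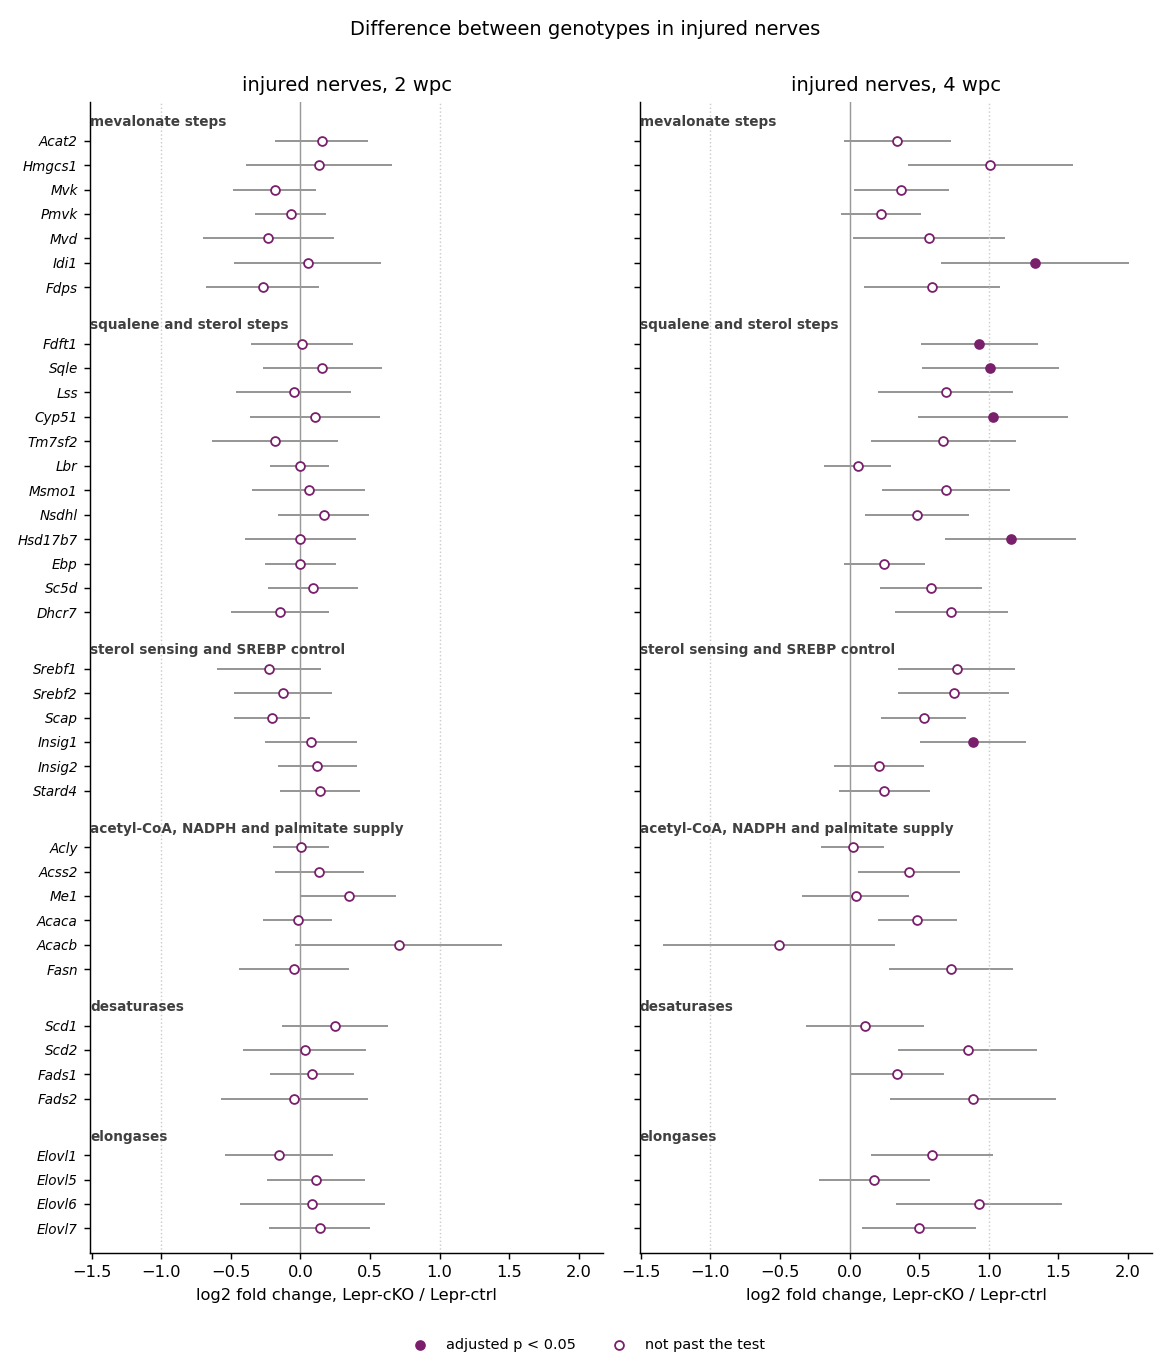
Log2 fold change of *Lepr*-cKO over *Lepr*-ctrl injured nerves (x axis) for the 39 members by role list (y axis) at 2 wpc (left) and 4 wpc (right), with lines as 95% intervals and filled points as adjusted p under 0.05. At 2 wpc points lie on both sides of 0 with a median of 0.03, and at 4 wpc all but *Acacb* lie above 0 with 6 filled.

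*Hsd17b7* had 6.62, 7.14, 8.41 and 7.04 CPM in injured *Lepr*-ctrl and 15.4, 18.3, 19.1 and 12.4 CPM in injured *Lepr*-cKO nerves at 4 wpc. The groups did not overlap, and the level was 2.23-fold higher in *Lepr*-cKO nerves (log2 fold change 1.16, SE 0.24, adjusted p = 0.0193). For scale, healthy *Lepr*-cKO nerves at 4 wpc held 120, 129, 139, 105 and 137 CPM of *Hsd17b7*. *Idi1* had 0.261, 0.446, 0.836 and 0.469 CPM in injured *Lepr*-ctrl nerves, which are only 3, 7, 15 and 5 counts, and 1.21, 1.37, 1.52 and 1.17 CPM, or 33, 25, 30 and 18 counts, in injured *Lepr*-cKO nerves. It was 2.52-fold higher (log2 fold change 1.33, SE 0.35, adjusted p = 0.0469), again without overlap.

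*Fdft1*, squalene synthase, the enzyme that commits farnesyl diphosphate to sterols (chr14:63145150-63179578, minus strand), had 15.8, 16.3, 24.2 and 13.0 CPM in injured *Lepr*-ctrl and 25.2, 39.7, 38.7 and 29.5 CPM in injured *Lepr*-cKO nerves. It was 1.91-fold higher in *Lepr*-cKO nerves (log2 fold change 0.93, SE 0.22, adjusted p = 0.0285), with the highest *Lepr*-ctrl nerve just under the lowest *Lepr*-cKO nerve. *Sqle* (chr15:59315077-59331192, plus strand) had 14.1, 14.3, 20.7 and 9.29 CPM against 33.8, 31.6, 33.8 and 19.4 CPM, a 2.02-fold difference (adjusted p = 0.0415). *Cyp51*, the lanosterol demethylase (chr5:4081145-4104746, minus strand), had 21.7, 38.8, 42.1 and 18.8 CPM against 43.0, 84.9, 85.0 and 36.1 CPM, a 2.04-fold difference (adjusted p = 0.0493). In *Sqle* and *Cyp51* the lowest *Lepr*-cKO nerve, that of animal KO-177, lay within the *Lepr*-ctrl range. *Insig1* had 15.6, 15.4, 16.04 and 13.99 CPM in injured *Lepr*-ctrl nerves, the narrowest spread of the 6, and 28.9, 30.1, 31.4 and 22.3 CPM in injured *Lepr*-cKO nerves, a 1.85-fold difference without overlap (log2 fold change 0.88, adjusted p = 0.0216). *Fdft1* and *Cyp51* share exon sequence with the neighbours *Ctsb* and *Akap9*, and since the use of strand in counting is not stated, their counts are less certain.

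**Figure D4:**
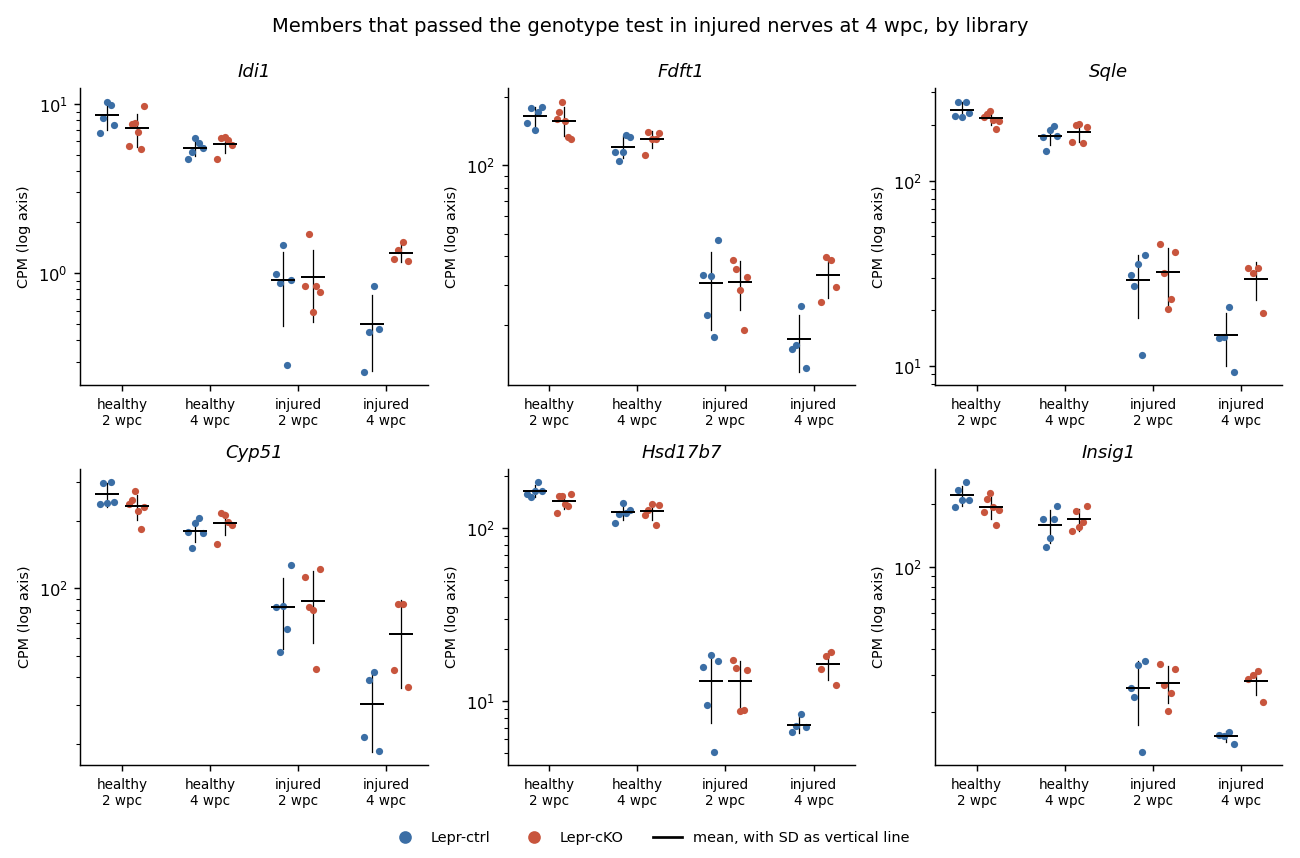
CPM per library (y axis, log scale) of the 6 members that passed the genotype test in injured nerves at 4 wpc, by nerve and time (x axis), in *Lepr*-ctrl (blue) and *Lepr*-cKO (red) nerves, with bars as means and vertical lines as SD. Genotypes overlap in healthy nerves and in injured nerves at 2 wpc, and at 4 wpc injured *Lepr*-ctrl nerves lie lower, for *Hsd17b7* at 6.62 to 8.41 CPM against 12.4 to 19.1 CPM.

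The following members did not pass the test. *Hmgcs1* had 105, 150, 159 and 69.4 CPM in injured *Lepr*-ctrl and 205, 298, 306 and 167.8 CPM in injured *Lepr*-cKO nerves at 4 wpc, with no overlap but a wide range in each (log2 fold change 1.01, adjusted p = 0.0698). *Srebf2* had 57.1, 60.8, 73.5 and 47.6 CPM against 123.4, 86.8, 113 and 78.5 CPM (0.75, adjusted p = 0.0535), and *Srebf1* a log2 fold change of 0.77 (adjusted p = 0.0566). Among the fatty acid enzymes, *Scd2* had 1335, 1436, 1780 and 1228 CPM against 3763, 2108, 2975 and 1558 CPM (0.85, adjusted p = 0.0701). *Elovl6* had 40.8, 47.6, 52.8 and 37.1 CPM against 87.8, 93.3, 105 and 53.2 CPM (0.93, adjusted p = 0.0886). *Acaca* had 25.3, 23.7, 28.1 and 24.1 CPM against 36.8, 32.7, 41.3 and 30.9 CPM (0.49, adjusted p = 0.0685). So *Hmgcs1*, *Srebf2*, *Elovl6* and *Acaca* were separated by library without passing the adjusted test, and *Scd2* overlapped through animal KO-177. At the other end, *Acly* had 83.9, 92.3, 83.3 and 85.1 CPM against 93.9, 78.4, 83.6 and 93.8 CPM, and the interval of its log2 difference was -0.21 to 0.25. For *Me1* the interval was -0.34 to 0.43, and for *Acacb* -1.34 to 0.33.

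As the mean log2 CPM over a list, the 19 cholesterol enzymes stood at 3.89 ± 0.24 (SD, n = 4) in injured *Lepr*-ctrl and 4.56 ± 0.23 (n = 4) in injured *Lepr*-cKO nerves at 4 wpc, without overlap. At 2 wpc the injured means were 4.54 ± 0.50 and 4.58 ± 0.31 (n = 5 each). The injured *Lepr*-ctrl nerve of SLRKO2wpc144 at 2 wpc, at 3.82, lay within the range of the *Lepr*-ctrl nerves at 4 wpc (3.605 to 4.17). The 14 fatty acid enzymes had means of 6.49 ± 0.09 and 6.84 ± 0.23 at 4 wpc, also without overlap, and 6.50 and 6.65 at 2 wpc. In healthy nerves the cholesterol enzymes had means of 6.49 at 2 wpc and 6.08 at 4 wpc in *Lepr*-ctrl and 6.38 and 6.16 in *Lepr*-cKO mice, and the fatty acid enzymes 7.71 to 7.77 over the 4 groups. These means were not tested.

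**Figure D5:**
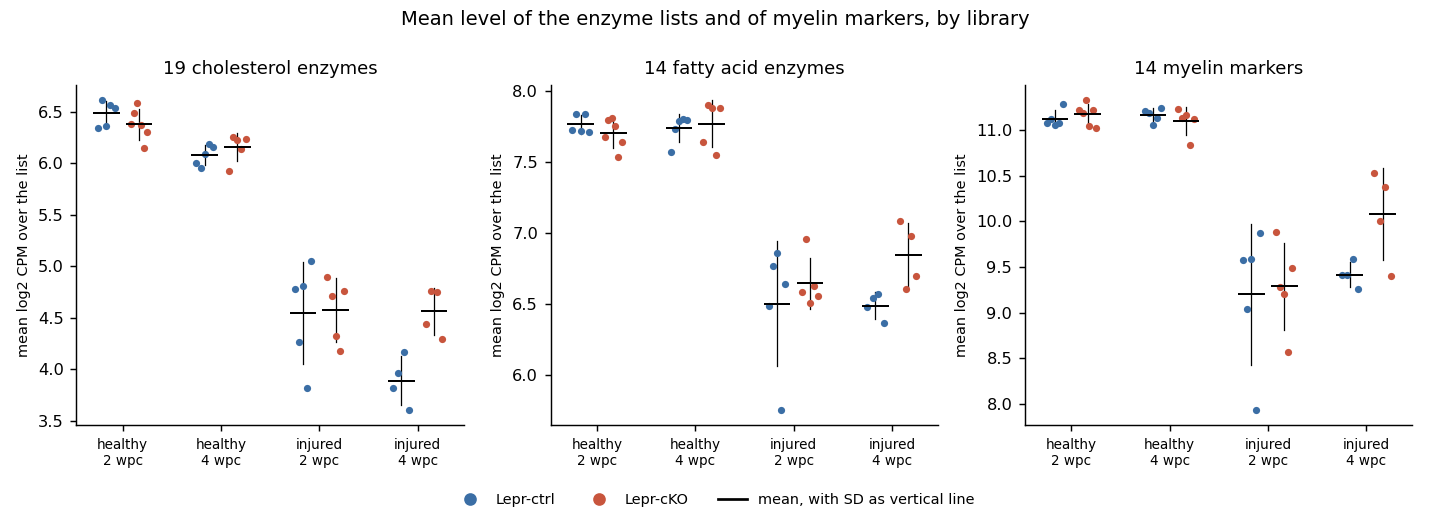
Mean log2 CPM per library (y axis) over the 19 cholesterol enzymes, the 14 fatty acid enzymes and 14 markers of myelinating Schwann cells, by nerve and time (x axis), in *Lepr*-ctrl (blue) and *Lepr*-cKO (red) nerves, with bars as means and vertical lines as SD. For the cholesterol enzymes in injured nerves at 4 wpc the *Lepr*-ctrl mean is 3.89 and the *Lepr*-cKO mean 4.56, and in the myelin markers the same *Lepr*-cKO group spreads widely.

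The 6 calls at 4 wpc rested on few nerves. Leaving out 1 library gave 0 to 17 calls among the 39 members: 0 without *Lepr*-cKO animal KO-176 or *Lepr*-ctrl animal WT-171 or WT-178, 1 without *Lepr*-cKO animal KO-169 or *Lepr*-ctrl animal WT-170, 2 without *Lepr*-cKO animal KO-175, 10 without *Lepr*-ctrl animal WT-173 and 17 without *Lepr*-cKO animal KO-177. Over these fits the log2 fold changes of the 6 stayed between 0.81 and 1.73, and 22 to 26 members had an unadjusted p under 0.05. With the spread estimated from the compared groups alone, 0 of the 6 passed, at log2 fold changes of 0.87 to 1.33.

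Markers of other properties of the same nerves were as follows. All 14 myelinating Schwann cell markers had a log2 fold change above 0 at 4 wpc with a median of 0.76, and 0 passed the adjusted test (*Prx* 0.95, adjusted p = 0.0682). Their sum was 28087 to 37826 CPM in injured *Lepr*-ctrl and 33943 to 84412 CPM in injured *Lepr*-cKO nerves. Macrophage markers had a median of -0.68, with 0 of 14 past the test and sums of 4336 to 9044 against 3422 to 4939 CPM. Adipocyte markers summed to 31.1 to 512 against 26.3 to 536 CPM, the share of mitochondrially encoded counts was 17.2% to 21.6% against 2.95% to 20.2%, and 3 of 4 *Lepr*-ctrl and 2 of 4 *Lepr*-cKO mice were female. Their part in the result was not tested, except that a term for sex left 3 calls (*Fdft1*, *Hsd17b7* and *Insig1*) and a term for adipocyte markers gave 9. With mitochondrially encoded genes left out, all 6 members called in the main fit still passed (log2 fold changes 0.88 to 1.33). That setting does not adjust for differences between nerves that go with the share. Leaving out the 13 adipocyte-rich libraries gave 0 calls with log2 fold changes of 1.00 to 1.47 for the 6, in a fit that held 1 *Lepr*-cKO and 2 *Lepr*-ctrl injured nerves at 4 wpc.

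In healthy nerves the 2 genotypes did not differ past the test in any member. At 2 wpc 0 of 39 members changed (0.0108% of all genes) and 0 had an unadjusted p under 0.05, with log2 fold changes from -0.26 for *Idi1* to 0.08 for *Acacb* and a median of -0.08. At 4 wpc 0 changed (0.00542% of all genes) and 0 had an unadjusted p under 0.05, with values from -0.10 for *Elovl1* to 0.26 for *Elovl5* and a median of 0.05. DESeq2 also made 0 calls at each time. No member had its groups apart at either time. The interval for *Hsd17b7* was -0.57 to 0.17 at 2 wpc and -0.37 to 0.40 at 4 wpc, and that for *Insig1* was -0.50 to 0.12 and -0.23 to 0.42.

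The difference between genotypes in the response to injury was tested directly. At 2 wpc it passed for 0 of 39 members (0% of all genes), with 0 at an unadjusted p under 0.05 and values from -0.31 for *Srebf1* to 0.62 for *Acacb*. The *Acacb* value again takes in the muscle-rich nerve of SLRKO2wpc126. At 4 wpc it again passed for 0 members (0% of all genes), by edgeR and by DESeq2, with 18 at an unadjusted p under 0.05 by each, all with a value above 0, that is, a less negative or more positive response in *Lepr*-cKO nerves. *Idi1* had the largest value, 1.25 (SE 0.42, adjusted p = 0.384), followed by *Hsd17b7* with 1.14 (SE 0.31, adjusted p = 0.384), *Sqle* with 0.94 and *Cyp51* with 0.92. So the larger falls of *Hsd17b7* and *Idi1* in *Lepr*-ctrl than in *Lepr*-cKO nerves at 4 wpc did not hold after adjustment over all genes.

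Whether injured nerves of the 2 genotypes differed more at 4 than at 2 wpc was tested as a difference of differences, added after the values were seen. It passed for 0 of 39 members (0% of all genes). The median was 0.74 against 0.03 over all genes, 36 of 39 values were above 0, and 24 members had an unadjusted p under 0.05 (14.97% of all genes), 23 of them higher. *Hsd17b7* had 1.16 (SE 0.31, adjusted p = 0.117), *Idi1* 1.28 (SE 0.44, adjusted p = 0.185), *Srebf1* 1.00 (SE 0.29, adjusted p = 0.134) and *Acacb* the lowest value, -1.21. That of *Acacb* also takes in the muscle-rich nerve of SLRKO2wpc126 at 2 wpc. The injured nerves at 4 wpc enter all of these comparisons, so their values are not independent of each other.

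The course from 2 to 4 wpc was read as the response to injury at 4 wpc minus that at 2 wpc, which takes off the healthy nerves of each cohort. In *Lepr*-ctrl nerves 1 member was higher and 1 lower, where 4.05% of all genes were higher and 5.05% lower. *Srebf1* changed by -1.32 (SE 0.28, adjusted p = 0.00279), with every injured nerve at 4 wpc below every one at 2 wpc. *Me1* changed by 0.94 (SE 0.25, adjusted p = 0.0152). It had 23.1, 26.0, 27.0, 15.3 and 26.3 CPM in injured *Lepr*-ctrl nerves at 2 wpc and 41.9, 54.8, 46.1 and 34.6 CPM at 4 wpc, while its healthy nerves had 158, 161, 178.2, 133 and 162 CPM at 4 wpc, much as at 2 wpc. Injured nerves at 4 wpc were thus all above those at 2 wpc and all far below healthy ones. Without *Lepr*-ctrl animal WT-171 the call for *Me1* was lost (0.80, adjusted p = 0.0599), and without *Lepr*-ctrl animal SLRKO2wpc144 there were 9 calls.

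With the mouse as a replicate block, 7 members changed in this course. The share of all genes that changed with the block is not given here. *Me1* was again higher (0.82, adjusted p = 0.0327), and 6 were lower: *Srebf1* (-1.31), *Fasn* (-1.13), *Srebf2* (-0.83), *Lss* (-0.72), *Scap* (-0.58) and *Acaca* (-0.52), with adjusted p from 0.00376 to 0.0492. In *Lepr*-cKO nerves 0 of 39 members changed over the same course (1.51% of all genes higher and 0.575% lower). DESeq2 made 0 calls too, and 4 members had an unadjusted p under 0.05, all higher: *Elovl1* 0.84, *Idi1* 0.76, *Elovl7* 0.73 and *Me1* 0.57. With the block *Elovl1* was higher (0.84, adjusted p = 0.0178), the single member to pass. The median over members was -0.31 in *Lepr*-ctrl and 0.12 in *Lepr*-cKO nerves.

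Other genes around the pathway were read from 4 lists of 59 genes, 57 of them tested, which were written down from pathway knowledge. Over all genes, 30.2% and 31.2% fell and 33.7% and 32.4% rose in *Lepr*-ctrl nerves at 2 and 4 wpc. In *Lepr*-cKO nerves 29.2% and 25.8% fell and 35.9% and 29.6% rose. Among 12 genes of myelin sphingolipid synthesis, 9 and 10 fell and 1 rose with injury in *Lepr*-ctrl nerves at 2 and 4 wpc, and 9 and 8 fell and 1 rose in *Lepr*-cKO nerves. *Ugt8a*, which makes galactosylceramide, changed by -2.41, -2.14, -2.15 and -1.31, and *Fa2h*, the fatty acid hydroxylase of these lipids, by -2.22 and -1.78 in *Lepr*-ctrl nerves. Among 16 tested genes of fatty acid elongation and activation outside the set, 12 and 11 fell and 4 rose in *Lepr*-ctrl nerves, and 9 and 10 fell and 4 and 3 rose in *Lepr*-cKO nerves. *Elovl4*, an elongase of very long chains, changed by -3.36, -2.85, -3.13 and -2.44, and *Hacd1*, a dehydratase of the elongation cycle, by 2.38, 2.28, 2.45 and 1.88.

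Genes of sterol transport, storage and efflux moved both ways, as all genes did in the shares given above. Of 14, 6 rose and 6 fell in *Lepr*-ctrl nerves at 2 wpc, 7 and 6 at 4 wpc, and 5 and 6 and then 6 and 4 in *Lepr*-cKO nerves. *Abca1*, the cholesterol exporter, rose by 4.45 and 3.23 in *Lepr*-ctrl and 4.23 and 3.51 in *Lepr*-cKO nerves, and *Ch25h*, which makes an oxysterol that holds SREBP back, by 3.47, 3.67, 3.57 and 3.06. Of 15 genes of SREBP processing and its upstream factors, 7 rose and 6 fell, 5 and 7, 5 and 6, and 4 and 6 in the same order. Between genotypes in injured nerves at 4 wpc, *Fads3* (0.76, SE 0.16, adjusted p = 0.0201) and *Stard3*, a sterol transfer protein (0.56, SE 0.15, adjusted p = 0.0469), were higher in *Lepr*-cKO nerves. There 0 genes of the sphingolipid and SREBP processing lists changed, and 0 of the 57 changed at 2 wpc. Over all genes, 1.31% changed between genotypes in injured nerves at 4 wpc and 0.58% at 2 wpc.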

How the data were processed

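RNA of sciatic nerve endoneurium was prepared with the TruSeq kit and read as single 50-base reads. The authors demultiplexed with bcl2fastq 2.20.0.422, aligned to GRCm38 with STAR 2.5 (at most 2 mismatches), and used featureCounts 1.5.0-p1 to count per gene. The deposited values are raw counts per gene, neither normalised nor filtered. Use of strand and treatment of reads with several alignments are not given in the sources used here, so overlapping genes (*Fdft1*, *Cyp51*, *Srebf1*, *Acss2*, *Tm7sf2*, *Elovl1* and *Lbr*) are uncertain. The columns of the authors' own comparisons are not among the values used.

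From these counts, edgeR 4.0.16 (R 4.3.3; TMM, filterByExpr with a minimum count of 10 and total of 15, quasi-likelihood test, Benjamini-Hochberg) was fitted over all 39 libraries and 8 group means, without a block. Groups came from the sample titles. Log2 CPM used a prior count of 2. Members, lists and comparisons were chosen with earlier results of these data known, so they are not blind to the data, although the rule for members uses symbols and no values. All 39 members could be named. In each comparison and role list, up to 3 of the members past the test were taken for mention, by absolute log2 fold change, or 2 where none passed, and the member with the lowest p was given by library. The fit was checked on simulated counts. Gene names were from GENCODE (99.9% of tested genes named), and promoters from RefSeq.

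Nerves of the same animal share a number in the titles, for 17 mice. Their deviations from the group means correlated at -0.116 to 0.567 over 5000 genes, over 0.1 in 14 of 17, and a fit with the animal as block was an alternative. Other alternatives were DESeq2 1.42.0, its size factors, no filter, at least 10 counts in every library, mitochondrially encoded genes left out, a sex term, the compared groups only and each library left out. A term for adipocyte markers, leaving out the 13 libraries over 100 CPM of them, leaving out the muscle-rich library and the comparison of genotype differences over time were added after seeing the data. No 2 libraries were duplicates. Some results are not reported here.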

Additional observations from a re-analysis of the deposited data

Results flagged for a closer look

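Dixon's criterion for the highest or lowest library was applied to 312 sets of values (39 members in 8 groups) and was exceeded in 18 (5.769%), where chance flags about 1 in 20 groups. The flags fell on 9 libraries.

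In the healthy *Lepr*-cKO nerves at 4 wpc, animal KO-169 was lowest for 4 members: *Pmvk* at 70.5 CPM (83.3 to 86.1 in the others), *Mvd* at 23.8 (38.5 to 43.7), *Fdps* at 8.47 (13.6 to 15.1) and *Stard4* at 65.5 (84.4 to 91.0). In the same group animal KO-177 was lowest for *Elovl1* at 579 CPM (683 to 717). In the injured *Lepr*-cKO nerves at 2 wpc, animal SLRKO2wpc126, whose library also carried muscle transcripts, was highest for *Idi1* at 1.70 CPM (0.588 to 0.837), *Insig2* at 44.4 (23.1 to 27.5) and *Me1* at 52.0 (21.5 to 26.9), and animal SLRKO2wpc135 was highest for *Stard4* at 30.9 (20.9 to 23.6) and *Fads1* at 253 (181 to 200). The healthy nerve of SLRKO2wpc135, a separate library, was highest for *Acacb* among the healthy *Lepr*-cKO nerves at 2 wpc, at 15.6 CPM (7.29 to 10.2).

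In the injured *Lepr*-cKO nerves at 4 wpc, animal KO-177 was lowest for *Sqle* at 19.4 CPM (31.6 to 33.8) and *Tm7sf2* at 12.4 (18.99 to 20.05), and animal KO-169 was highest for *Fads2* at 235 (80.1 to 102). In the injured *Lepr*-ctrl nerves at 2 wpc, animal SLRKO2wpc144, with the largest mitochondrially encoded share, was lowest for *Srebf2* at 27.8 CPM (82.8 to 89.5), *Acaca* at 17.7 (30.5 to 34.8) and *Fasn* at 102 (184 to 201). In the injured *Lepr*-ctrl nerves at 4 wpc, animal WT-171 was highest for *Fasn* at 143 CPM (101 to 108).

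The response to injury of *Lepr*-ctrl nerves differed between 2 and 4 wpc for *Me1* (0.94 on the log2 scale, 4 wpc minus 2 wpc) and *Srebf1* (-1.32) by edgeR's test of the difference itself.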

How the results depend on the processing

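No member that passed a test changed direction in any setting run. The 6 calls between genotypes in injured nerves at 4 wpc became 12 with DESeq2, 3 with no filter, 3 with a term for sex, 0 with the compared groups alone (26 at an unadjusted p under 0.05) and 0 without the 13 adipocyte-rich libraries (13 unadjusted), which leaves 1 *Lepr*-cKO nerve, assumed to vary like the other groups, against 2 (log2 fold changes of the 6 at 1.00 to 1.47), and 0 to 17 with 1 library left out. They were 4 to 9 in the other settings (9 with the adipocyte term, 7 without the muscle-rich library, 7 with at least 10 counts in every library, which drops *Idi1* from the test), and over all genes the 241 calls ran from 7 to 2263 with 1 library left out. The course in *Lepr*-ctrl nerves went from 2 to 7 calls with the replicate block and 2 to 9 with 1 library left out, and that in *Lepr*-cKO nerves from 0 to 1 with the replicate block, 1 without the muscle-rich library and 0 to 1 with 1 library left out. The block gave 37, 38, 38 and 38 changed members for the 4 injury comparisons and 0 for the interaction of genotype and injury at each time, with the calls for *Fads2* and *Insig2* changed as given above, and it moved no other count by over 1.5 times. It cannot be used between genotypes, since no mouse has both. The injury counts were 36 to 38 in *Lepr*-ctrl nerves at 2 wpc, 37 to 38 at 4 wpc, 36 to 38 in *Lepr*-cKO nerves at 2 wpc and 31 to 38 at 4 wpc over all settings with every group kept, the 31 without the adipocyte-rich libraries, which leaves fewer samples, and 35 to 39 with 1 library left out. Counts of 0 between healthy nerves, between injured nerves at 2 wpc and for that interaction stayed 0 in all settings. The cause of the other changes was not tested. Depth limits *Idi1* most, at 3 to 15 counts in injured *Lepr*-ctrl nerves at 4 wpc.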
